A study of Mus musculus with 12 samples.

Results

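Endothelium and vessel signalling genes were followed in mural granulosa cells (MGCs, the granulosa cells that line the follicle wall) and in cumulus cells (those that surround the oocyte). Their members are 10 genes taken by symbol from the tables of both cell types, out of 35856 genes listed in either table: Vegfa, Kdr, Flt1, Tek, Pecam1, Cdh5, Selp, Egfl7, Edn2 and Ednrb. All 10 are listed in both tables. The rule takes genes by name and uses no measured value, although it was written with earlier results of these data known. RNA was sequenced from 12 libraries, 3 for each combination of cell type and genotype, taken 2 h after human chorionic gonadotropin (hCG), which stands in for the ovulatory surge of luteinizing hormone. The mice were immature females primed with equine chorionic gonadotropin. Libraries titled Control are called WT here, and those titled Sphk1/2 knockout are called Sphk1/2gc-/-, both after the paper. By the paper, the knockout libraries came from mice that lack Sphk1 in every cell and that carry floxed Sphk2 alleles (Sphk2 fl/fl) with Fshr-Cre, a Cre recombinase active in granulosa cells. Both genes encode sphingosine kinases, the enzymes that make sphingosine-1-phosphate, so vessel and blood cells of the knockout mice lack Sphk1 as well. The labels do not say how many animals gave a library, so p-values measure only the spread between these samples.

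The preovulatory follicle has no vessels inside its basal lamina. Capillaries lie in the theca around it and grow inward when the follicle ruptures. VEGF-A, made by granulosa cells, acts on the receptors KDR and FLT1 of endothelial cells and drives vessel growth and leakiness, while angiopoietins act on TEK to set vessel stability. Endothelins are short peptides cut from precursors by endothelin-converting enzymes, and they act on the receptors EDNRA and EDNRB. Endothelin-2 is known as a product of granulosa cells around ovulation, where it constricts the follicle wall.

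The FPKM values (fragments scaled by exon length and library size) returned 16100365 to 19761604 reads per library, at which Ednrb, near 1 FPKM in WT cumulus cells, rested on 58 to 76 reads in a library. Sphk1, the gene deleted in the whole body, measured 1.68, 1.89 and 0.460 FPKM in the WT MGC libraries against 0.433, 0.557 and 0.104 FPKM in Sphk1/2gc-/- MGCs, so these libraries overlapped. In cumulus cells Sphk1 was at 0.0699 to 0.0954 FPKM in WT and 0.0779 to 0.557 FPKM in Sphk1/2gc-/-, low values whose direction goes against the label. Sphk2 overlapped between genotypes in both cell types. These are RNA values over whole genes. The paper flanked only part of Sphk2 with loxP sites, and it reports depletion of SphK2 protein in granulosa cells by immunofluorescence and western blotting. Every genotype below is therefore that of the label. Library 3 of the Sphk1/2gc-/- MGCs stood apart, its correlations with the remaining MGC libraries running from 0.912 to 0.939, and results that turn on it are given without it. Granulosa markers summed to 9202 to 15340 FPKM in WT MGCs and to 2876 to 3988 FPKM in WT cumulus cells.

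Vegfa led the members in each group. In WT MGCs its mean was 73.1 ± 11.7 FPKM (SD, n = 3), above Edn2 at 6.66 ± 3.56 and Cdh5 at 6.25 ± 1.00, whose libraries overlapped with each other. Pecam1, Kdr and Ednrb followed at 2.21 ± 0.354, 2.03 ± 0.0620 and 1.98 ± 0.293 FPKM, with neighbours that overlapped. Selp, Egfl7, Tek and Flt1 lay lowest, with means from 1.04 down to 0.484 FPKM and each overlapping the next. In WT cumulus cells Vegfa was at 4.11 ± 1.25 FPKM. Edn2, Ednrb and Egfl7 lay at means of 1.14, 0.929 and 0.849 FPKM, and the other 6 members at means of 0.217 FPKM or less. In Sphk1/2gc-/- cumulus cells Edn2 had reached the level of Vegfa, with means of 8.79 ± 4.20 and 9.71 ± 4.38 FPKM and overlapping libraries.

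**Figure D1:**
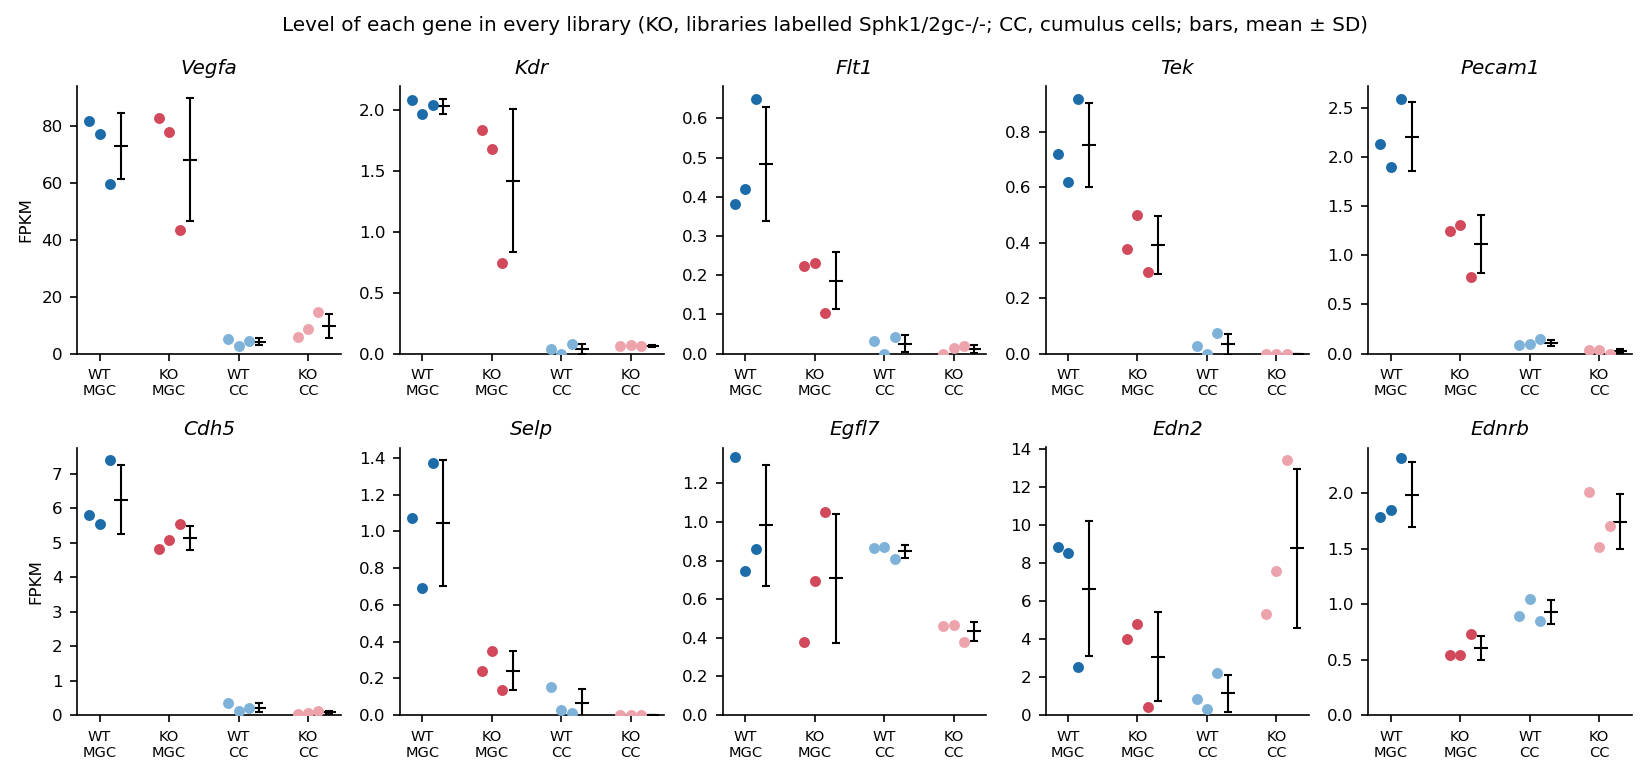
FPKM of each of the 10 genes (linear axis from 0) in each of the 12 libraries, as points by group, with mean ± SD as black bars. KO stands for Sphk1/2gc-/- libraries and CC for cumulus cells. Edn2 and Ednrb are lower in Sphk1/2gc-/- than in WT MGCs on average and higher in Sphk1/2gc-/- than in WT cumulus cells, while Kdr, Flt1, Tek, Pecam1, Cdh5 and Selp are near 0 in cumulus cells.

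In cumulus cells the question was whether the loss of sphingosine kinases altered the transcripts of vessel signals 2 h after hCG. Edn2, Vegfa and Ednrb were higher in Sphk1/2gc-/- cumulus cells, a ligand of each system and the endothelin B receptor. Edn2 rose most, 7.73-fold between group means, or 14.7-fold without WT library 3, the highest of its group. Egfl7 was lower and did not pass, and the other 6 members were too low to test. The test took genes that averaged 0.5 FPKM or more in either genotype, which left 4 members, of which Edn2, Vegfa and Ednrb reached that level in both genotypes and Egfl7 in WT only. Of all genes tested here, 22.3% passed an adjusted p of 0.05 or less, 9.66% as higher in Sphk1/2gc-/-, and 3 of the 4 members passed as higher. At a fold change of 2 or more as well, 4.19% of all genes were higher, with 2 of the 4 members, Edn2 and Vegfa. The libraries of the genotypes did not overlap, with Sphk1/2gc-/- higher, in 18.2% of all genes and in these 3 members, and with Sphk1/2gc-/- lower in 24.1% of all genes and in Egfl7.

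Edn2, the endothelin-2 precursor (chr4:120161206-120167360, plus strand, GRCm38), was at 0.850, 0.342 and 2.22 FPKM in WT cumulus cells, which is 20, 9 and 57 reads. In Sphk1/2gc-/- cumulus cells it was at 5.30, 7.62 and 13.4 FPKM, or 146, 220 and 377 reads. Every Sphk1/2gc-/- library lay above every WT library. The difference was 2.21 on the log2(FPKM + 1) scale (SE 0.376, 95% confidence interval 1.34 to 3.07, adjusted p = 0.00626), and it passed under each of the 14 alternatives run. That scale understates changes of low genes, here as elsewhere in the text.

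Ednrb, the endothelin B receptor (chr14:103814625-103844402, minus strand), was at 0.892, 1.05 and 0.846 FPKM in WT and at 2.01, 1.52 and 1.71 FPKM in Sphk1/2gc-/- cumulus cells. The genotypes did not overlap, and the means differed 1.88-fold. The log2 difference was 0.51 (SE 0.139, interval 0.19 to 0.83, adjusted p = 0.0349). With any 1 of the 6 libraries left out it no longer passed (adjusted p of 0.0505 to 0.0976). Ednrb had 58 to 76 reads in WT and 121 to 153 in Sphk1/2gc-/- libraries.

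Vegfa (chr17:46016993-46032369, minus strand) was at 5.07, 2.70 and 4.56 FPKM in WT cumulus cells. It was at 5.91, 8.72 and 14.5 FPKM in Sphk1/2gc-/- cumulus cells, so that the lowest knockout library lay just above the highest WT library. The means differed 2.36-fold, and the log2 difference was 1.02 (SE 0.309, interval 0.31 to 1.73, adjusted p = 0.0478). Vegfa kept an adjusted p of 0.05 or less without Sphk1/2gc-/- library 1 and lost it without any 1 of the other 5 libraries, with the highest adjusted p, 0.151, without WT library 2.

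The 250 bases upstream of the RefSeq start of each of these 3 genes are shown because the 3 transcripts rose in the same cells. RefSeq on GRCm38.p6 gave promoter entries for 8 of the 10 members and not for Pecam1 or Cdh5. Capitals mark every match, on either strand, to 5 motifs: ACGTG (core of the hypoxia response element), TGACG (part of the cAMP response element), TGANTCA (AP-1), GGGCGG (SP1) and TATAAA (the box bound by TBP). The runs are read 5′ to 3′ on the strand of the gene, from chr17:46032378-46032627 (minus), chr4:120160956-120161205 (plus) and chr14:103843702-103843951 (minus).
Vegfa: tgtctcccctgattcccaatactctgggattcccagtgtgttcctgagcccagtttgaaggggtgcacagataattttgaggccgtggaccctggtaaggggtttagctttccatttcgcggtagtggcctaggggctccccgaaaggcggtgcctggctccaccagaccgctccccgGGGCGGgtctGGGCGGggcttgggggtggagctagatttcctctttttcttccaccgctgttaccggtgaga
Edn2: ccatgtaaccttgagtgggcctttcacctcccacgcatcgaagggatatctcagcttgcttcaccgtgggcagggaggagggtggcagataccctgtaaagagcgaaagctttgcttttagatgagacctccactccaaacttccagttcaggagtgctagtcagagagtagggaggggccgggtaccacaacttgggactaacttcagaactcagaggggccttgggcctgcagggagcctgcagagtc
Ednrb: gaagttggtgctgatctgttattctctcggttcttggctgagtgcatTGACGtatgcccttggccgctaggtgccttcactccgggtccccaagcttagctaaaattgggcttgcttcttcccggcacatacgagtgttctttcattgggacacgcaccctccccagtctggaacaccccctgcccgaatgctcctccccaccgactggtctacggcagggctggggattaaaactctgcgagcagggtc
The Vegfa run holds 2 GGGCGG boxes, at 72 and 62 bases before the start, and the Ednrb run holds 1 TGACG, at 203 bases before it. The Edn2 run holds none of the 5. Over all 32851 RefSeq promoters of 300 bases (250 before and 50 after the start), 35.7% hold GGGCGG, 20.8% TGACG, 19.6% ACGTG, 13.6% TATAAA and 7.81% TGANTCA. Matches to the first 3 motifs can share bases. The 3 printed runs thus hold no motif in common, and a match is only a description of the letters. Vegfa has a second RefSeq start further inside the gene, whose run, not printed here, holds 1 GGGCGG, 1 TGACG and 1 ACGTG, with shared bases in the TGACG and ACGTG, so it has TGACG in common with Ednrb. In addition, the RefSeq start of Ednrb lies inside the gene as GENCODE bounds it.

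Egfl7, a factor secreted by endothelial cells, was at 0.867, 0.870 and 0.811 FPKM in WT and at 0.460, 0.466 and 0.379 FPKM in Sphk1/2gc-/- cumulus cells. The genotypes did not overlap, and the log2 difference of -0.37 (SE 0.125, adjusted p = 0.0677) did not pass. Its exons overlap those of Agpat2, a lipid enzyme read from the neighbouring locus, and the counting is not stated to use strand, so their reads may be mixed. Agpat2, looked up after its overlap was seen, was at 3.50 to 5.75 FPKM in WT and 4.66 to 6.24 FPKM in Sphk1/2gc-/- cumulus cells.

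The endothelial receptors and adhesion genes were near the limit of detection in cumulus cells. The VEGF receptor Kdr had 5, 0 and 12 reads in WT and 11, 13 and 10 in Sphk1/2gc-/- libraries, and Flt1 had 7, 0 and 10 against 0, 4 and 5 reads. Pecam1, which joins endothelial cells, had 9, 11 and 16 reads in WT and 4, 4 and 0 in Sphk1/2gc-/-. Cdh5, the cadherin of endothelial junctions, had 24, 8 and 14 against 3, 6 and 10 reads. Pecam1 thus did not overlap between genotypes and Cdh5 did, at counts too low for a test. The angiopoietin receptor Tek had 2, 0 and 6 reads in WT cumulus cells, and P-selectin (Selp), an adhesion protein of platelets and activated endothelium, had 11, 2 and 1. Both had 0 reads in all 3 Sphk1/2gc-/- libraries, which allows up to 3 reads in each, so that no fold is given.

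Across the endothelin system as a list of 7 genes (Edn1, Edn2, Edn3, Ednra, Ednrb, Ece1 and Ece2), 6 were tested in cumulus cells and all 6 had a positive log2 difference, with a median of 0.80 against -0.06 over all genes tested. In addition to Edn2 and Ednrb, 2 passed as higher. Edn1, the endothelin-1 precursor, went from 18.4, 11.0 and 26.5 to 35.6, 37.2 and 42.5 FPKM (log2 difference 1.09, adjusted p = 0.0279). Ece1, a converting enzyme that releases active endothelins, went from 5.43, 6.81 and 8.86 to 17.0, 13.9 and 17.6 FPKM (log2 difference 1.11, adjusted p = 0.00662). The genotypes overlapped in neither gene. The receptor Ednra (log2 difference 0.11, adjusted p = 0.663) and Ece2 (0.22, adjusted p = 0.277) did not pass. The list summed to 29.6 to 50.6 FPKM in WT and 71.2 to 89.6 FPKM in Sphk1/2gc-/- cumulus cells.

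**Figure D2:**
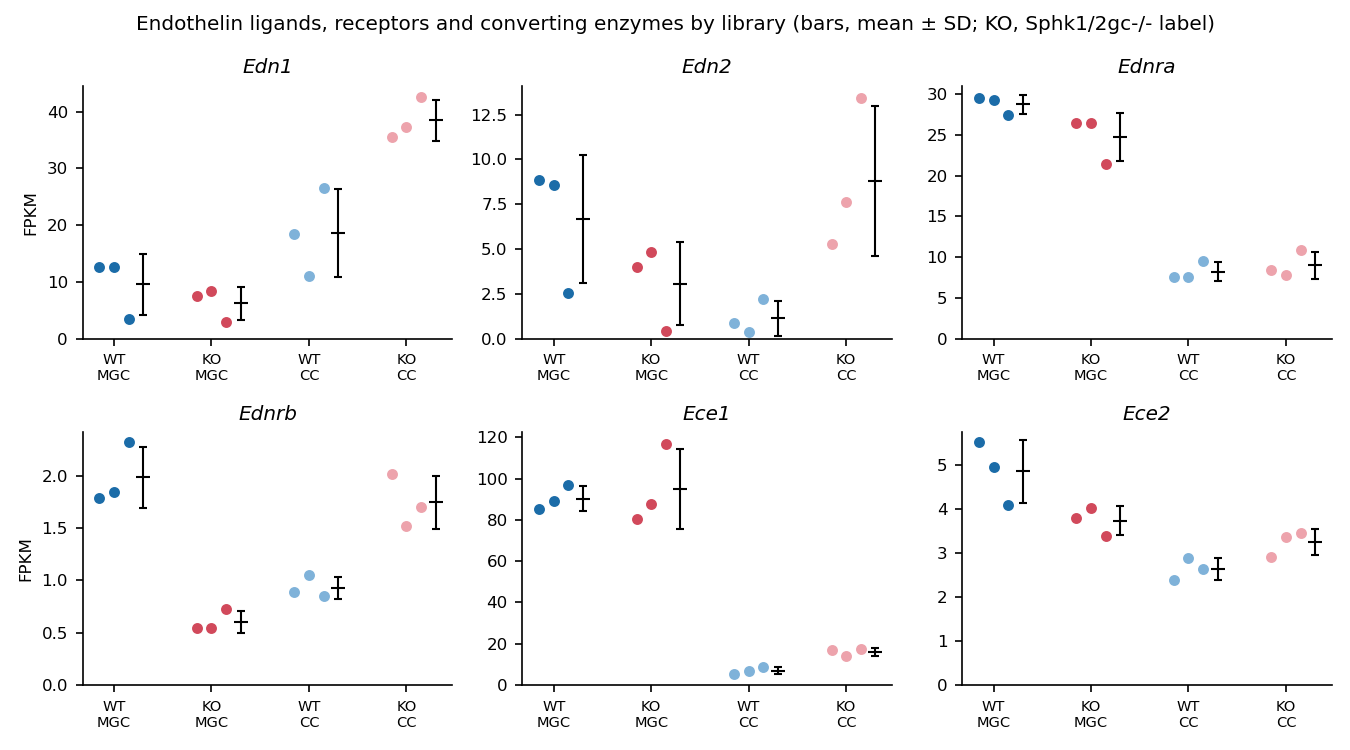
FPKM of the 6 tested genes of the endothelin system (linear axis from 0) in each of the 12 libraries, as points by group, with mean ± SD as black bars. KO stands for Sphk1/2gc-/- libraries and CC for cumulus cells. In cumulus cells Edn1, Edn2, Ednrb, Ece1 and, narrowly, Ece2 lie higher in every Sphk1/2gc-/- library than in any WT library, and Ednra overlaps.

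The other lists around the members moved less evenly in cumulus cells. Of the VEGF family of 10 genes, 4 were tested, with Vegfa higher and Vegfb, a ligand of FLT1, lower, at 2.94, 3.50 and 3.44 against 2.22, 2.05 and 1.43 FPKM (log2 difference -0.58, adjusted p = 0.0361). Of the HIF pathway list of 13 genes, which holds the oxygen-sensing factors and some of their known targets, 10 were tested and 1 passed. This was Bnip3, a mitophagy receptor, which fell by 1.86 on the log2 scale (adjusted p = 0.00177), from 195 to 281 FPKM in WT to 52.2 to 83.2 FPKM. Of 7 secreted angiogenesis inhibitors, 3 were tested and 1 passed, Thbs1 (thrombospondin-1), at 188, 144 and 198 against 381, 578 and 684 FPKM (log2 difference 1.60, adjusted p = 0.00396). Of 6 angiopoietin and TIE genes 1 was tested and did not pass, and none of the 4 selectin genes was expressed highly enough for a test.

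In MGCs the same genotype comparison gave lower values for all 9 tested members and no call. Flt1, at means under 0.5 FPKM in both genotypes, was not tested. Ednrb (3.29-fold lower between group means), Selp (4.31-fold) and Pecam1 (1.99-fold) had the smallest unadjusted p, and none passed the adjustment over 15279 genes. Of all genes tested, 0.0393% passed an adjusted p of 0.05 or less (6 genes, or 3 with the library number as a block), and 0 of the 9 members did so. At an unadjusted p of 0.05 or less, 9.20% of all genes and 3 of the 9 members passed. The libraries of the genotypes did not overlap, with Sphk1/2gc-/- lower, in 6 of the 9 tested members and in 9.17% of all genes. Tek and Selp reached 0.5 FPKM through WT alone, so the filter favours lower values for them.

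Ednrb measured 1.79, 1.85 and 2.32 FPKM in the WT MGC libraries, against 0.541, 0.541 and 0.726 FPKM in Sphk1/2gc-/- MGCs. The groups were far apart, with a log2 difference of -0.89 (SE 0.159, interval -1.27 to -0.52, unadjusted p = 0.000848, adjusted p = 0.152). Without Sphk1/2gc-/- library 3 the difference was -0.95 and passed (adjusted p = 0.0420), when 1.83% of all genes passed. Edn2 was at 8.88, 8.56 and 2.56 FPKM in WT against 4.00, 4.81 and 0.416 FPKM in Sphk1/2gc-/- MGCs. Library 3 was the lowest of each genotype, and WT library 3 lay below 2 of the Sphk1/2gc-/- libraries. The log2 difference of -1.01 (SE 0.629, interval -2.50 to 0.48, adjusted p = 0.682) did not pass. Edn2 was lower in Sphk1/2gc-/- in each of the 3 pairs of same-numbered libraries, and with the library number as a block its SE was 0.197 (unadjusted p = 0.00323, adjusted p = 0.219). With library 3 of both genotypes left out, Edn2 (-0.85, adjusted p = 0.0145) and Ednrb (-0.87, adjusted p = 0.0177) passed, when 16.1% of all genes did.

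Vegfa measured 82.0, 77.5 and 59.8 FPKM in the WT MGC libraries, against 83.2, 78.2 and 43.5 FPKM in Sphk1/2gc-/- MGCs. The genotypes overlapped, and the log2 difference of -0.14 had an interval of -0.77 to 0.50 (adjusted p = 0.922). It was 0.15 without Sphk1/2gc-/- library 3, so no direction is drawn from it. Its receptor Kdr was at 2.09, 1.97 and 2.05 FPKM in WT against 1.84, 1.68 and 0.747 FPKM in Sphk1/2gc-/- MGCs (log2 difference -0.36, SE 0.220, adjusted p = 0.677). Each Sphk1/2gc-/- library was below each WT library, with library 3 far below the other two. Flt1 was at 0.382, 0.419 and 0.650 against 0.223, 0.232 and 0.102 FPKM, which did not overlap.

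Pecam1 was at 2.13, 1.90 and 2.59 FPKM in WT against 1.25, 1.31 and 0.773 FPKM in Sphk1/2gc-/- MGCs (log2 difference -0.61, SE 0.182, unadjusted p = 0.0130, adjusted p = 0.379). Cdh5 moved less, from 5.81, 5.53 and 7.39 to 4.83, 5.07 and 5.53 FPKM (log2 difference -0.23, SE 0.156, adjusted p = 0.706), and its nearest libraries of the 2 genotypes were almost equal. The ratio of Cdh5 to Pecam1, both genes of endothelial junctions, was 2.73 to 2.92 in WT and 3.86 to 7.15 in Sphk1/2gc-/- MGCs, so their levels did not fall in proportion.

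Selp was at 1.07, 0.689 and 1.37 FPKM in WT against 0.241, 0.348 and 0.138 FPKM in Sphk1/2gc-/- MGCs (log2 difference -0.71, SE 0.184, unadjusted p = 0.00649, adjusted p = 0.306), with no overlap. Tek was at 0.721, 0.620 and 0.919 against 0.376, 0.501 and 0.294 FPKM (log2 difference -0.33, SE 0.156, adjusted p = 0.576), again with no overlap. Egfl7 overlapped, at 1.34, 0.749 and 0.861 against 0.379, 0.692 and 1.05 FPKM (log2 difference -0.22, SE 0.212, adjusted p = 0.794). The exons of Selp overlap those of 2 predicted genes, which were at 0 in most libraries.

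**Figure D3:**
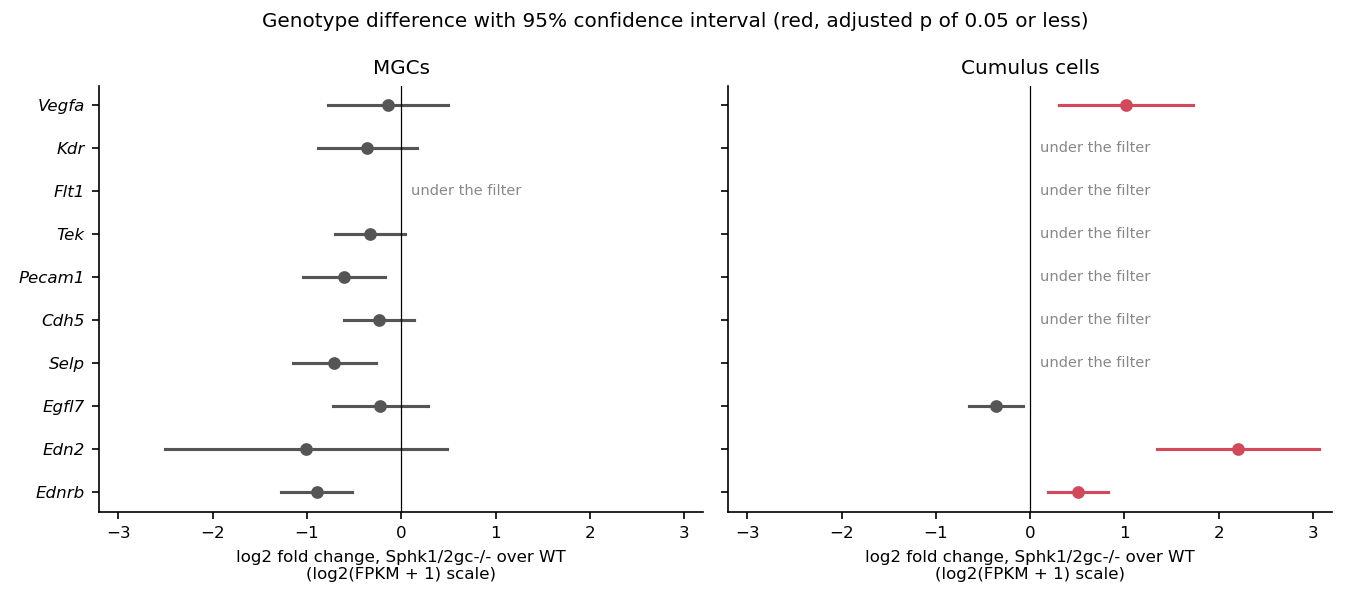
Log2 fold change of Sphk1/2gc-/- over WT on the log2(FPKM + 1) scale for each gene, with 95% confidence intervals as lines, in MGCs (left) and cumulus cells (right). Red points have an adjusted p of 0.05 or less, grey points do not, and genes under the expression filter have no point. The 9 tested genes lie below 0 in MGCs and none is red, while Vegfa, Edn2 and Ednrb are red and above 0 in cumulus cells.

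No pathway list had a gene past the adjusted threshold in MGCs. The median log2 difference was -0.58 for the 5 tested angiopoietin and TIE genes, -0.70 for the 4 selectin genes, -0.38 for 6 endothelin genes, -0.09 for 8 VEGF family genes, -0.08 for 11 HIF pathway genes and -0.08 for 7 angiogenesis inhibitors. Over all genes it was -0.003. Angpt2, the angiopoietin that destabilizes vessels, was chosen after its values were seen. It was at 13.5, 13.8 and 2.97 FPKM in WT against 1.26, 1.97 and 1.62 FPKM in Sphk1/2gc-/- MGCs (log2 difference -1.87, SE 0.504, unadjusted p = 0.00790, adjusted p = 0.326), with no overlap.

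A separate list of 25 endothelial markers, which holds none of the members, was lower in Sphk1/2gc-/- MGCs in sum, at 25.0 to 29.2 against 35.5 to 39.7 FPKM in WT, with no gene at 0 in any MGC library. Sox18, a transcription factor set apart after its values were seen, was at 12.57 FPKM in Sphk1/2gc-/- library 3. It was at 4.588 and 6.56 FPKM in libraries 1 and 2 of that genotype and at 5.638 to 7.541 FPKM in WT. The other 24 markers summed to 20.45, 22.61 and 13.99 FPKM in Sphk1/2gc-/- MGCs and to 27.99 to 34.1 FPKM in WT. Their sum was thus lower in each Sphk1/2gc-/- library, and lowest in library 3. The mean was lower in Sphk1/2gc-/- for 21 of the 25 markers. Of the 16 tested, 0 passed the adjustment, 7 had an unadjusted p of 0.05 or less and 14 a negative log2 difference (median -0.50). As 6 of the 16 reached 0.5 FPKM through WT alone, the filter favours negative values among them. In bulk RNA, fewer endothelial cells and less RNA per cell cannot be told apart, and this touches Kdr, Flt1, Tek, Pecam1, Cdh5 and Selp alike. Among other marker lists, leukocyte markers summed to 131 to 200 FPKM in WT and 8.81 to 43.2 FPKM in Sphk1/2gc-/- MGCs, most of it from S100a8 and S100a9, with no overlap. The list did not fall as a whole: of 5 tested, 2 had a positive and 3 a negative log2 difference (median -0.009). Adgre1 and Csf1r, named after their values were seen, had higher means in Sphk1/2gc-/- (3.37 and 2.93 FPKM) than in WT (1.71 and 2.34 FPKM). Their libraries overlapped. Red cell markers overlapped, at 262 to 404 against 30.6 to 291 FPKM, with the lowest sum in Sphk1/2gc-/- library 3 and 230.0 and 291 FPKM in the other two. Platelet markers (2.47 to 3.36 against 2.11 to 3.01 FPKM) overlapped, as did granulosa markers (11370 to 12470 FPKM in Sphk1/2gc-/-). Oocyte markers varied widely within each genotype and overlapped too, at 36.0 to 91.9 FPKM in WT and 26.9 to 112.5 FPKM in Sphk1/2gc-/- MGCs. Pericyte, theca and stroma markers overlapped in sum (157 to 296 against 119 to 182 FPKM), although 8 of the 9 had a negative log2 difference and 3 an unadjusted p of 0.05 or less. These 3, named after their values were seen, are genes of pericytes and smooth muscle and did not overlap between genotypes. Pdgfrb was at 1.92 to 2.43 FPKM in WT against 0.700 to 0.960 FPKM in Sphk1/2gc-/- MGCs, Rgs5 at 1.14 to 1.56 against 0.450 to 0.662 FPKM, and Acta2 at 49.3 to 54.7 against 27.6 to 37.8 FPKM (adjusted p of 0.202, 0.294 and 0.294). The part of these cells in the lower values was not tested.

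In cumulus cells the endothelial list summed to 3.54 to 4.14 FPKM in WT and 7.89 to 13.3 FPKM in Sphk1/2gc-/-. Sox18, an endothelial transcription factor, made up most of the latter, with 1.42 to 1.99 against 5.40 to 11.7 FPKM (log2 difference 1.74, adjusted p = 0.00351). It was set apart after its values were seen. The other 24 markers summed to 1.54 to 2.72 FPKM in WT and 1.61 to 2.49 FPKM in Sphk1/2gc-/-, with 1 to 11 and 10 to 13 of them at 0, and Tie1 at 0 in all 3 Sphk1/2gc-/- libraries. Of these 24, the mean was lower in Sphk1/2gc-/- for 18 and higher for 6. Looked up after their values were seen, Clec14a was at 0.1495 to 0.177 FPKM in WT and 0.331 to 0.421 FPKM in Sphk1/2gc-/-, Sox7 had means of 0.235 and 0.532 FPKM, and the pericyte marker Pdgfrb was at 0.0609 to 0.104 against 0.330 to 0.723 FPKM. The pericyte, theca and stroma list that holds Pdgfrb did not rise as a whole. It summed to 16.7 to 59.0 FPKM in WT and 11.5 to 32.9 FPKM in Sphk1/2gc-/-, with overlap. Of its 3 tested genes, 1 passed as lower and 0 as higher (median log2 difference -0.79). Beside these, red cell markers summed to 4.37 to 26.8 FPKM in WT and 0.300 to 1.78 FPKM in Sphk1/2gc-/- cumulus cells, leukocyte markers to 2.94 to 19.5 against 0.608 to 0.960 FPKM, and granulosa markers to 2876 to 3988 against 2520 to 2864 FPKM. The 2 leukocyte markers tested, S100a8 and S100a9, had negative log2 differences. Adgre1 and Csf1r, too low to test, had higher means in Sphk1/2gc-/- (0.221 and 0.279 FPKM) than in WT (0.0292 and 0.0862 FPKM), with overlapping libraries. Of 9 granulosa markers 5 passed as lower, among them Cyp19a1 (aromatase), with a log2 difference of -2.38. Oocyte markers summed to 3.89 to 7.17 against 2.20 to 2.64 FPKM. Whether these shifts bear on the members was not tested.

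**Figure D4:**
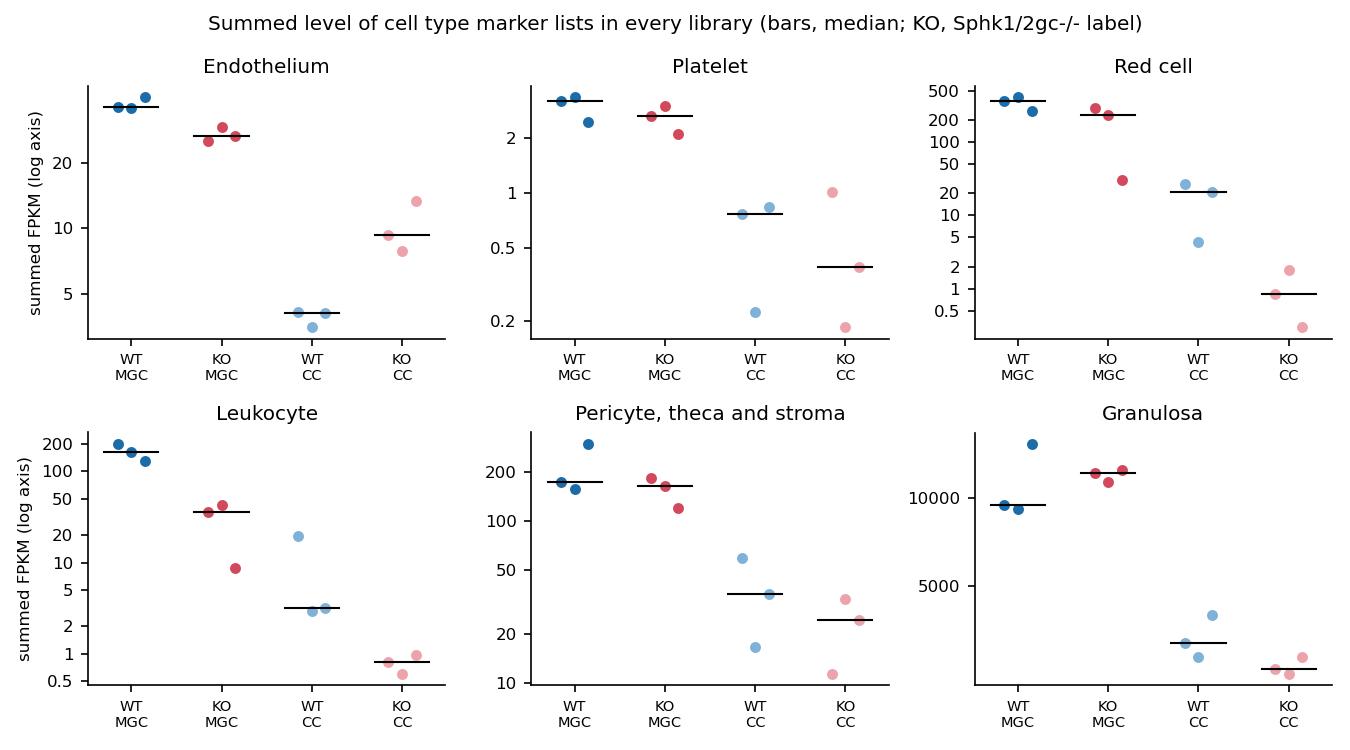
Summed FPKM (log axis) of 6 lists of cell type markers in each of the 12 libraries, as points by group, with the median as a black bar. KO stands for Sphk1/2gc-/- libraries and CC for cumulus cells. The endothelial sum is lower in Sphk1/2gc-/- than in WT MGCs. In cumulus cells it is higher in Sphk1/2gc-/- than in WT, where Sox18 makes up most of the Sphk1/2gc-/- sum. The leukocyte sum, which in WT comes mostly from S100a8 and S100a9, is lower in Sphk1/2gc-/- libraries of both cell types.

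Whether the genotype difference itself differed between cell types was tested as an interaction in 1 model of the 12 libraries. A joint scaling of the 2 tables is not stated, and FPKM was taken as scaled within each library. Edn2 and Ednrb had log2 differences of opposite sign in the 2 cell types, and they were the 2 members that passed, out of 9 tested, where 3.93% of all genes passed. For Ednrb, the log2 difference in cumulus cells exceeded that in MGCs by 1.40 (SE 0.186, interval 0.99 to 1.81, adjusted p = 0.00534), and it passed under all 20 alternatives (adjusted p of 0.00116 to 0.0203). For Edn2 the excess was 3.22 (SE 0.799, interval 1.47 to 4.96, adjusted p = 0.0471). It lay close to the threshold and passed under 10 of 20 alternatives. It no longer passed without library 1 or 2 of the WT MGCs, any of the 3 WT cumulus libraries, or library 2 or 3 of the Sphk1/2gc-/- cumulus cells, with the highest adjusted p, 0.128, without WT MGC library 1. For Vegfa the excess of 1.16 (SE 0.449, adjusted p = 0.159) did not pass, so its rise in cumulus cells is not shown to differ from MGCs.

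The interaction of the receptors and adhesion genes carried little information, as they were near 0 in cumulus cells. Selp had 0.62 (adjusted p = 0.0871), Pecam1 0.49 (adjusted p = 0.163), Kdr 0.40, Tek 0.29, Cdh5 0.06 and Egfl7 -0.14, none of which passed. Fitted on the recovered reads, the signs of Selp, Pecam1, Tek and Cdh5 turned, and no direction is drawn for them. Of the endothelin system, 3 of 6 genes passed, all as higher in cumulus cells: Edn2, Ednrb and Ece1 (1.06, adjusted p = 0.0464). The median of the list was 1.23, against -0.03 over all genes.

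**Figure D5:**
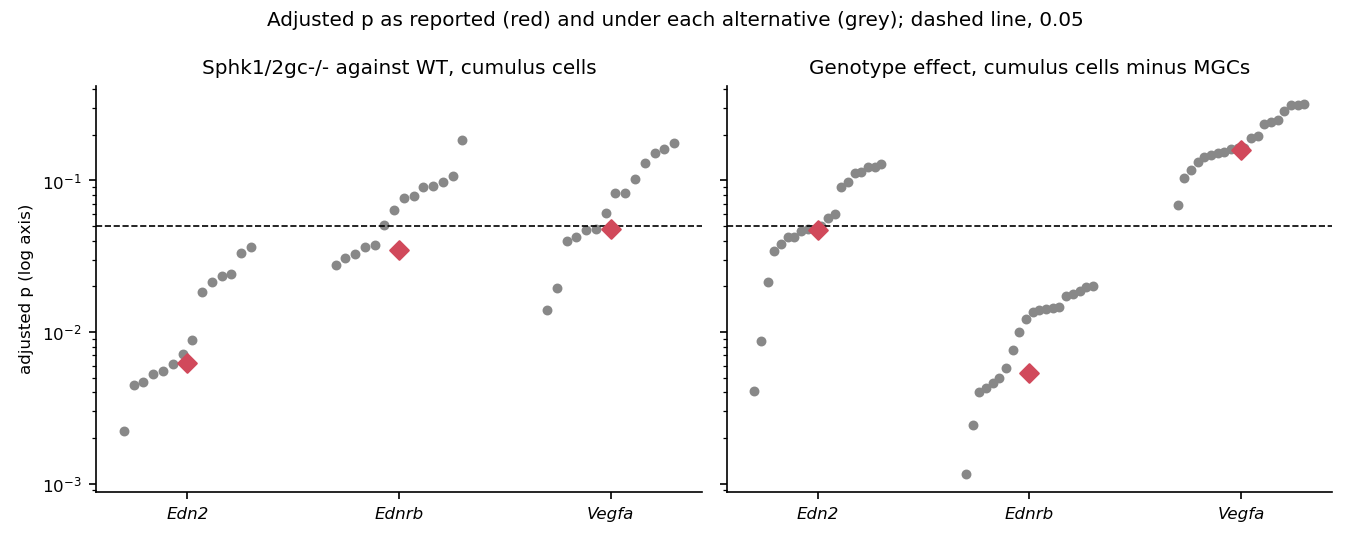
Adjusted p (log axis) of Edn2, Ednrb and Vegfa for the genotype difference in cumulus cells (left) and for its excess over MGCs (right). Red diamonds are the reported values, grey points the alternatives in rising order, and the dashed line marks 0.05. Edn2 stays under the line throughout on the left and Ednrb throughout on the right.

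The last comparison set MGCs against cumulus cells within a genotype. In WT, 8 of the 9 tested members were higher in MGCs, where 52.5% of all genes were, and the exception was Egfl7. Kdr, Tek, Pecam1, Cdh5 and Selp reached 0.5 FPKM in WT through MGCs alone, so they had to be higher there, and their count is a description. In Sphk1/2gc-/- libraries the same holds for Kdr, Pecam1, Cdh5 and Egfl7, although Egfl7 reached that level in both WT cell types. Tek and Selp were under 0.5 FPKM in both Sphk1/2gc-/- cell types and were tested through WT MGCs. The median of all tested genes was shifted by 0.54 towards MGCs, and scaling by the median of ratios brought this to 0.09 and the share of passing genes that were higher in MGCs from 68.6% to 52.1%. Vegfa was 17.8-fold higher between group means in WT MGCs (log2 difference 3.88, SE 0.317, adjusted p = 3.77e-07). Vegfa, at 0.5 FPKM or more in both cell types, lay above the shift of all genes on that scale. Cdh5 (2.57), Kdr (1.55), Pecam1 (1.52), Selp (0.93) and Tek (0.76) passed as well, with no overlap of libraries. The filter fixed the direction of these genes in advance, so their passing is a description too. Summed markers of cells other than granulosa cells were also higher in WT MGCs than in WT cumulus cells. Endothelial markers were at 35.5 to 39.7 against 3.54 to 4.14 FPKM, and leukocyte markers at 131 to 200 against 2.94 to 19.5 FPKM. Red cell (262 to 404 against 4.37 to 26.8 FPKM) and oocyte markers (36.0 to 91.9 against 3.89 to 7.17 FPKM) did not overlap either. The part of such cells in the values of the members was not tested.

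Edn2 and Ednrb changed their order between cell types with the genotype. In WT, Edn2 was 5.86-fold higher in MGCs between group means (log2 difference 1.80, adjusted p = 0.0119) and Ednrb 2.14-fold (0.63, adjusted p = 0.000947), although with median-of-ratios scaling Ednrb no longer passed (0.20, adjusted p = 0.170). Without WT cumulus library 2 the WT difference of Edn2 was 1.51 (adjusted p = 0.0501), and without WT cumulus library 3 the fold was 11.2. In Sphk1/2gc-/- libraries, Edn2 was 2.86-fold higher in cumulus cells (log2 difference -1.42, adjusted p = 0.0387) and Ednrb 2.89-fold (-0.77, adjusted p = 0.000213). The 2 cell types did not overlap in either gene in either genotype. The Edn2 value no longer passed without Sphk1/2gc-/- MGC library 3 (-0.78, adjusted p = 0.176), nor without WT cumulus library 1 or Sphk1/2gc-/- cumulus library 2 or 3. It did not pass with a pseudocount of 0.1 FPKM (adjusted p = 0.0553), with no filter (0.0688) or without MGC library 3 of both genotypes (0.0978) either, and it kept its sign under all 20 alternatives. In the Sphk1/2gc-/- libraries 51.3% of all genes were higher in MGCs and 22.0% in cumulus cells, and the median of all genes was shifted by 0.51 towards MGCs.

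Vegfa remained higher in MGCs in Sphk1/2gc-/- libraries, 7.03-fold between group means (log2 difference 2.72, adjusted p = 9.29e-06). Cdh5 (2.51), Kdr (1.15), Pecam1 (1.04) and Tek (0.47, adjusted p = 0.00188) passed as higher too. This makes 5 of the 9 tested members, near the 51.3% of all genes. Tek lay below the shift of all genes on this scale, on which a gene at 0 reads in cumulus cells, as Tek and Selp are here, is held to a small difference. With voom on the recovered reads Tek was at 6.13 and Selp at 5.30 (adjusted p = 6.48e-05). Selp (0.31, adjusted p = 0.0556) and Egfl7 (0.23, adjusted p = 0.204) did not pass. Selp also passed with a pseudocount of 0.1 FPKM (1.73, adjusted p = 0.00278), with no filter (adjusted p = 0.0454) and without MGC library 3 of both genotypes (adjusted p = 0.00981). It passed too without library 2 or 3 of the WT MGCs or library 3 of the Sphk1/2gc-/- MGCs (adjusted p of 0.0284 to 0.0310). Egfl7 passed without Sphk1/2gc-/- MGC library 1 (0.38, adjusted p = 0.0488). Egfl7 was the member whose libraries overlapped between cell types in both genotypes, with the reads of Agpat2 as the limit given above.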

How the data were processed

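RNA libraries of MGCs and cumulus cells were prepared with the NEBNext Ultra RNA kit, which does not mark strand. The authors deposited FPKM, in 1 table for each cell type, and their processing notes name HISAT2 and GRCm38, while the counting tool is not given in the sources used here. The tables list 29101 and 33137 genes, named with GENCODE M21, and 0 columns were left unused.

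FPKM multiplied by exon length gave whole multiples of 1 read for 90.6% to 92.1% of values above 0 (tolerance 0.02 reads), from which depth and read counts were recovered. Counts cover counting error only, with a floor of 3 reads.

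Genotypes were compared with limma 3.58.1 (R 4.3.3, intensity trend) on log2(FPKM + 1), in genes that averaged 0.5 FPKM or more in a compared group, with Benjamini-Hochberg adjustment over all genes tested. The 12 libraries were fitted together for cell types and the interaction, although joint scaling is not stated. The exon length suited both tables or neither for 99.8% of 13867 genes. Simulated tables with 200 changed genes were used to test the code. The members and lists were chosen with earlier results of these data known. All 10 members are named, and other genes where they passed the threshold in a fixed list, or as chosen after their values were seen.

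MGC libraries of the same number deviated together, with correlations of 0.220, 0.158 and 0.224, so the number was tried as a block. Alternatives were a pseudocount of 0.1 FPKM, no filter, a filter of 1 FPKM, no trend, median-of-ratios scaling, voom on recovered reads and leaving out libraries.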

Additional observations from a re-analysis of the deposited data

Results flagged for a closer look

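The genotype difference was not the same in the 2 cell types for 10 of the genes named or counted above, by the interaction term (limma, adjusted p of 0.05 or less, difference in cumulus cells minus that in MGCs on the log2 scale). For Edn2 it was 3.22 (adjusted p = 0.0471) and for Ednrb 1.40 (adjusted p = 0.00534), each lower in Sphk1/2gc-/- MGCs and higher in Sphk1/2gc-/- cumulus cells on average. Over all genes 3.93% passed (624 of 15869). By list, 3 of 6 endothelin genes, 1 of 7 angiogenesis inhibitors, 3 of 17 endothelial markers and 1 of 5 angiopoietin and TIE genes passed, with Tie1 in both of the last. So did 2 of 9 granulosa markers and 1 of 9 pericyte, theca and stroma markers, and none in the other lists.

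From the lists around them, Ece1 had 1.06 (adjusted p = 0.0464) and Thbs1 1.40 (adjusted p = 0.0487). The endothelial markers Cldn5 (1.10, adjusted p = 0.0157), Clec14a (1.22, adjusted p = 0.0413) and Tie1 (0.73, adjusted p = 0.0418) were at most 0.421 FPKM in any cumulus library and were tested through MGCs alone, so their cumulus differences are held to small values on this scale, and none of their MGC differences passed by itself. The pericyte marker Pdgfrb, also tested through MGCs alone, had 1.22 (adjusted p = 0.00987), and the granulosa markers Cyp19a1 and Nr5a2 had -3.05 (adjusted p = 0.0166) and -1.53 (adjusted p = 0.0125).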

How the results depend on the processing

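Of 713 values of single members under the alternatives, 651 kept their direction and their side of the threshold, 36 lost it, 11 gained it and 15 turned in sign. In MGCs the number of members that passed, 0, became 2 with library 3 of both genotypes left out, and ranged from 0 to 1 when 1 library was left out. In cumulus cells the 3 that passed, and the 2 with a fold of 2 or more, became 1 (Edn2) with no filter, with the replicate block or without library 3 of both genotypes. Leaving out 1 library gave 1 to 2 by each rule. In the interaction, 1 member (Ednrb) passed by each rule with a pseudocount of 0.1 FPKM, with no filter and with voom, and 1 to 2 when 1 library was left out. Between cell types, members past a fold of 2 rose from 5 in WT to 8 with a pseudocount of 0.1 FPKM or voom, and from 5 to 8 with voom in Sphk1/2gc-/-.

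None of the reversed values had passed the threshold, to which Selp in the interaction lay nearest (adjusted p = 0.0871). In MGCs, Vegfa was -0.31 to 0.15 with 1 library left out (0.15 without Sphk1/2gc-/- library 3) and 0.017 without library 3 of both genotypes. In the interaction, Cdh5 was -0.52 with a pseudocount of 0.1 FPKM, -0.014 with median-of-ratios scaling, -1.10 with voom, -0.0050 without MGC library 3 of both genotypes, and -0.050 (without WT MGC library 3) to 0.14 with 1 library left out. Egfl7 there was 0.038 without MGC library 3 of both genotypes, and with voom Pecam1 was -1.64, Selp -0.83 and Tek -1.21. Egfl7 between cell types was -0.26 in WT and -0.035 in Sphk1/2gc-/- with median-of-ratios scaling, and -0.036 (without WT MGC library 1) to 0.17 in WT with 1 library left out. The cause was not tested, other than that leaving out a library leaves fewer samples and that voom replaces the pseudocount of 1 FPKM.

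Counts over all genes moved more. In MGCs 6 genes passed, and 0 to 278 when 1 library was left out, the most without Sphk1/2gc-/- library 3. Without library 3 of both genotypes 2486 passed, 1 with no filter, 1 with median-of-ratios scaling (higher, against 16.7% of 6 higher), 0 with voom and 3 with the replicate block. In cumulus cells 2725 passed, 1319 to 3930 without 1 library, 1240 with no filter and 715 without library 3. In the interaction 624 passed, 108 to 1189 without 1 library, 327 with no filter, 380 with voom, 961 with median-of-ratios scaling (51.7% higher, against 62.3%), and 2474 without MGC library 3 of both genotypes.

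With the replicate block, Vegfa (adjusted p = 0.0606) and Ednrb (adjusted p = 0.0768) did not pass in cumulus cells, whose same-numbered libraries had correlations of -0.148, -0.0511 and 0.115 and so share only a number. No other call on a member changed with the block. Depth limits Kdr, Flt1, Tek, Pecam1, Cdh5 and Selp in cumulus cells, at 24 reads or fewer per library.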
